A study of Mus musculus with 4 samples.

Results

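The acute phase proteins described here are 10 secreted plasma proteins: the serum amyloid A proteins Saa1, Saa2, Saa3 and Saa4, the orosomucoids Orm1 and Orm2, lipocalin 2 (Lcn2), the pentraxins Crp and Apcs, and the inter-alpha-trypsin inhibitor heavy chain Itih4. They were taken by gene symbol from GENCODE M21, and all 10 were found among the 55487 genes of the deposited table. All 10 also passed the filter on low counts, which left 16310 tested genes. The table holds mRNA-seq of bulk liver tumours from 4 mice, with a background that the series gives as Alb-cre and H11-myc (Cre recombinase under the albumin promoter, and c-Myc at H11), in which hepatocellular carcinoma arises. The labels do not restate this background for each animal. Of these, 2 mice are labelled wild type and 2 are labelled as liver conditional knockouts of Tfrc, which encodes the transferrin receptor for iron uptake. Albumin is a hepatocyte gene, so an albumin-driven Cre acts in hepatocytes and the tumour cells derived from them, and other cells of the tissue keep Tfrc. Age and sex of the mice are not given in the sources used here.

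During inflammation, cytokines such as interleukin 6 and interleukin 1 act on hepatocytes through STAT3, C/EBP and NF-kB factors and change the plasma proteins that the liver secretes. Positive acute phase proteins rise in this response, and negative ones such as albumin and transthyretin fall. In mice Saa1, Saa2, Saa3, the orosomucoids and Apcs respond strongly, whereas Crp, the leading marker in humans, responds weakly.

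Total counts ran from 15918349 to 17052943 per library. Levels are CPM, TMM-scaled counts relative to library size, unless FPKM, the authors' length-scaled value, is named. Tfrc itself did not check the labels, with 459.7 and 234 CPM in wild type replicates 1 and 2 and 334 and 205 CPM in replicates 1 and 2 labelled knockout. The share of counts from Alb was 0.601% in wild type replicate 1 (95% Wilson interval 0.598 to 0.605) and 1.62% to 2.66% elsewhere. Wilson intervals cover counting error only. Mitochondrial genes took between 4.13% and 16.63% of counts. Wild type replicate 2 was most often at an extreme, as the lowest library for 34.7% and the highest for 31.4% of tested genes, against 19.5% and 19.3% for knockout replicate 1, so the group comparison is also given without it.

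With 2 mice per group, no acute phase gene differed detectably between the groups beyond the spread between mice. The clearest pattern lay within the wild type group: each of the 10 transcripts was lowest in wild type replicate 1, and 9 were highest in wild type replicate 2. The exception was Saa2, which was highest in knockout replicate 2. Wild type replicate 2 exceeded wild type replicate 1 by 2.10-fold for Saa4 up to 9.96-fold for Saa2. For 9 of the 10 genes both knockout libraries lay between the wild type libraries. Among all tested genes, wild type replicate 1 was the lowest library for 22.4%, wild type replicate 2 was the highest for 31.4%, and both knockout libraries lay between the wild type ones for 20.2%. A ratio of wild type replicate 2 to replicate 1 of at least 2 held for 10 of 10 members and for 10.2% of all tested genes. Knockout replicate 1 was above knockout replicate 2 for 9 of 10 members, again all but Saa2, and for 49.8% of tested genes. In bulk tissue, fewer cells of a type and less RNA per cell cannot be told apart.

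**Figure D1:**
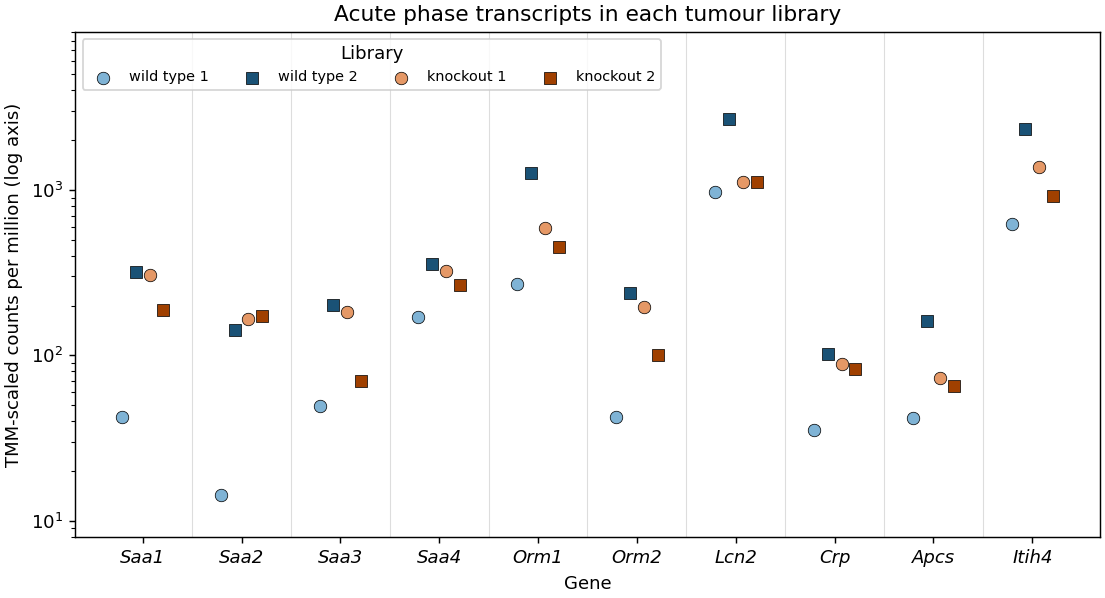
TMM-scaled CPM (log axis) of the 10 acute phase genes, with 1 point for each of the 4 tumour libraries. Wild type replicate 1 is the lowest point for all 10 genes, and both knockout points lie between the wild type points for all genes but Saa2.

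Together the 10 genes took 0.254% of counts in wild type replicate 1 (95% Wilson interval 0.251 to 0.256) and 0.704% in wild type replicate 2 (0.700 to 0.707). They took 0.450% in knockout replicate 1 (0.447 to 0.453) and 0.332% in knockout replicate 2 (0.329 to 0.335). Per length, Orm1 was the most abundant, with a mean of 800.0 FPKM over the 4 libraries, followed by Lcn2 (294 FPKM), Itih4 (251 FPKM), Orm2 (181 FPKM) and Saa4 (131 FPKM). Apcs (84.7 FPKM), Saa1 (67.8 FPKM), Saa3 (40.1 FPKM), Saa2 (33.9 FPKM) and Crp (21.0 FPKM) came next. The ranges over libraries overlapped for every pair of neighbours in this order. Within single libraries, Orm1 was above Lcn2, Itih4 above Orm2 and Saa4 above Apcs in 4 of 4, and each other neighbour pair kept its order in 3 of 4.

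By edgeR's quasi-likelihood test, 0 of the 10 genes passed an adjusted p of 0.05, as did 0% of all 16310 tested genes. At an unadjusted p under 0.05 there were 0 members, against 8.3% of all tested genes (3.95% higher in knockout). DESeq2 and limma-voom called 0 members as well, and they called 0.907% and 0.00613% of all tested genes. The adjusted p of the members ran from 0.728 for Saa2 to 0.994 for Saa3. The log2 fold change, knockout minus wild type, was above 0 for 6 members and below 0 for 4, with a median of 0.05, against 50.4% positive and a median of 0.01 over all tested genes. The sign of Saa3 turned under other scalings, so the positive count is 5 with DESeq2's size factors or with mitochondrial genes left out. The labelled groups did not overlap for 1 of the 10 genes, Saa2, against 42% of all tested genes. Saa2 was higher in knockout, as were 21.9% of all tested genes without overlap, and 0 members were lower, against 20.1%.

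**Figure D2:**
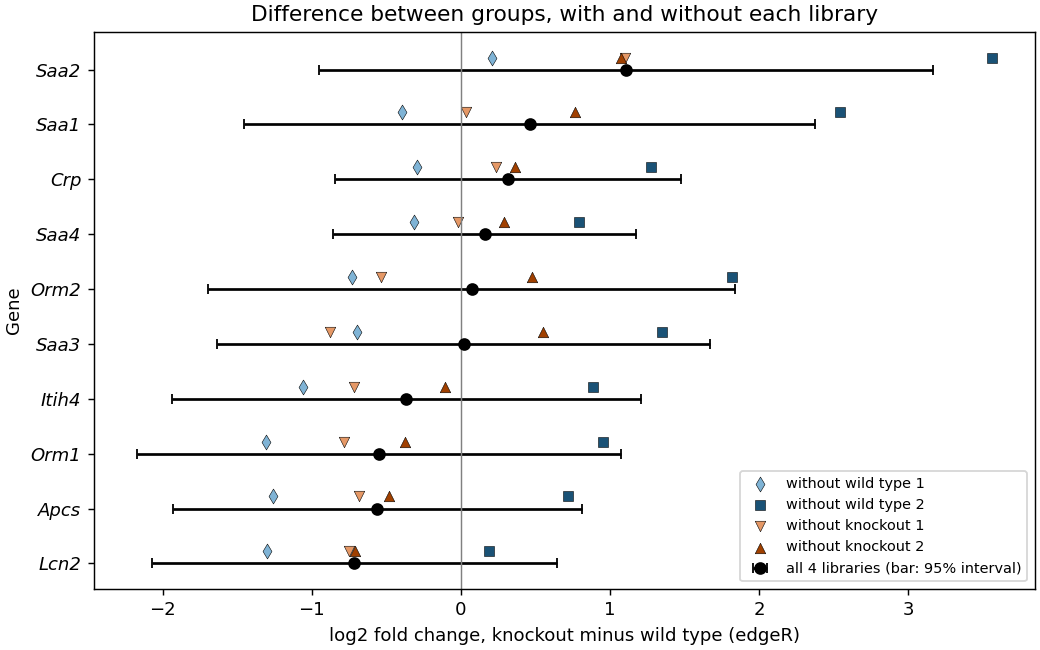
Log2 fold change, knockout minus wild type, of each acute phase gene; black points and bars are edgeR estimates with 95% intervals from all 4 libraries, and coloured symbols are estimates with 1 library left out. Every 95% interval includes 0, and leaving out wild type replicate 2 moves every estimate upward.

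Serum amyloid A proteins bind high-density lipoprotein, and Saa1 and Saa2 are the main circulating forms made by the inflamed liver. Saa1 (ENSMUSG00000074115, chromosome 7, 46740497 to 46742980, minus strand, mm10) had 42.4 and 317 CPM in wild type replicates 1 and 2 and 306 and 189 CPM in knockout replicates 1 and 2. Wild type replicate 1 stood far below the other libraries, and the groups overlapped. Means were 179.8 ± 194 CPM for wild type against 248 ± 82.9 CPM for knockout (SD, n = 2 each), giving a log2 fold change of 0.46 (SE 0.81, 95% interval -1.45 to 2.38, edgeR adjusted p = 0.883). Leaving out wild type replicate 2 gave 2.55, and leaving out wild type replicate 1 gave -0.39.

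Saa2 (ENSMUSG00000057465, chromosome 7, 46751790 to 46754313, plus strand) had 14.4 and 143 CPM in wild type replicates 1 and 2 and 166 and 173 CPM in knockout replicates 1 and 2. Both knockout libraries were above both wild type libraries, but wild type replicate 2 lay much closer to them than to wild type replicate 1. Means were 78.8 ± 91.1 CPM for wild type against 169.97 ± 4.92 CPM for knockout, giving a log2 fold change of 1.11 (SE 0.87, 95% interval -0.95 to 3.17, edgeR adjusted p = 0.728). The value depended on which wild type libraries were kept. Without wild type replicate 1 it was 0.21, whereas leaving out wild type replicate 2 gave 3.56. The latter fit sets wild type replicate 1 alone, the lowest library for Saa2, against the knockout libraries. Over the 4 fits that each left out 1 library, Saa2 ran from 0.21 to 3.56.

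Saa1 and Saa2 are neighbours on opposite strands and near-copies of each other, so the authors' counting could split their reads. Of the 50-base windows in Saa1 transcripts, 13.2% also occur in Saa2 transcripts. Summed to 1 feature, they had a log2 fold change of 0.69 (SE 0.83, edgeR adjusted p = 0.828). The sequences upstream of these genes, credited to RefSeq (GRCm38.p6), are shown because Saa1 and Saa2 varied most across libraries and Saa4 least. Each is written 5′ to 3′ on the strand of its gene, ends before the gene span of GENCODE M21 begins, and has in capitals each match to the C/EBP motif TTGCNNAA or its reverse complement. Saa1 is chr7:46742981-46743230 (minus strand), Saa2 is chr7:46751583-46751789 (plus strand), Saa3 is chr7:46715701-46715926 (minus strand) and Saa4 is chr7:46732604-46732853 (minus strand).
Saa1: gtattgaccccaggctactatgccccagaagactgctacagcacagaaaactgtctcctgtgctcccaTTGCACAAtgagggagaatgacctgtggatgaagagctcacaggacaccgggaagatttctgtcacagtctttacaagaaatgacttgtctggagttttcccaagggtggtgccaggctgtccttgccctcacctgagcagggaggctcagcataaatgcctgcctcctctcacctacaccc
Saa2: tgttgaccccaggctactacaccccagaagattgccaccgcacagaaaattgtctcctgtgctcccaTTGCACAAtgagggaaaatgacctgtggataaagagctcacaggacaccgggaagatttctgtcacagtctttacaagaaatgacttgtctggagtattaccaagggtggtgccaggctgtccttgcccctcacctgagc
Saa3: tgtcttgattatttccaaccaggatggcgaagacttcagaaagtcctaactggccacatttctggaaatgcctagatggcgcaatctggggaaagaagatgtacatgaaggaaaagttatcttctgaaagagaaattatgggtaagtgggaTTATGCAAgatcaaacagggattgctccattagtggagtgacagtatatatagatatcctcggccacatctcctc
Saa4: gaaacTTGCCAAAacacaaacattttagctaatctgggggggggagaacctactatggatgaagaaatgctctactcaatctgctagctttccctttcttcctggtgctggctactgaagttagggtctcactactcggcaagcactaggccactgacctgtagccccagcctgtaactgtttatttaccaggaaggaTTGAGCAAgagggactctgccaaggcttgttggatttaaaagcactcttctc

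Over the 250 bases before the RefSeq start, the Saa1 and Saa2 sequences were identical in 94.8% of aligned columns, against 52.2% for Saa1 and Saa3 and 49.5% for Saa1 and Saa4. The match TTGCACAA lay at positions -182 to -175 of Saa1 and -183 to -176 of Saa2, counted back from the start. Promoter sequences were matched for 9 of the 10 members, all but Orm1. On both strands, the C/EBP letters TTGCNNAA were found in 6 of these 9 (all 4 Saa genes, Orm2 and Lcn2), and in 9.56% of the 32851 windows of the same length in the table. The near-identical Saa1 and Saa2 windows share the same match, so they do not count independently. The Lcn2 window lies inside the gene span of GENCODE M21, so its match is not upstream of the gene annotated there. The STAT letters TTCNNNGAA, which read the same on both strands, were found in 2 of 9 (Apcs and Itih4) and in 7.02% of all windows. For NF-kB and HNF1, 1 fixed form of each motif was searched on both strands, and other forms were not. These had 0 matches in the 9 windows, against 1.41% and 0.371% of all windows. At such rates, 0 of 9 does not set these genes apart. No match of 1 motif overlapped a match of another. A match describes the letters only and is not evidence that a factor binds.

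Saa3 is an inducible form that macrophages and fat cells also make. It (ENSMUSG00000040026, chromosome 7, 46711998 to 46715700, minus strand) had 49.7 and 200.4 CPM in wild type replicates 1 and 2 and 183 and 69.9 CPM in knockout replicates 1 and 2. Here each group held 1 high and 1 low library, the widest gap between the knockout mice of any member at 2.62-fold. Between groups the log2 fold change of Saa3 came to 0.02 (SE 0.70, 95% interval -1.63 to 1.67, edgeR adjusted p = 0.994), from -0.88 without knockout replicate 1 to 1.35 without wild type replicate 2. Macrophage markers did not follow the same order: all 10 macrophage genes tested had negative log2 fold changes, and their summed level was 1156 and 1454 CPM in wild type against 725 and 411 CPM in knockout. Among them, Csf1r (the receptor of colony-stimulating factor 1) had 103 and 92.5 against 43.6 and 30.1 CPM, C1qb (a chain of complement C1q) 191 and 300.4 against 104 and 68.2 CPM, and the lysozyme gene Lyz2 337 and 316 against 243 and 91.3 CPM. None of the 3 passed by edgeR, while DESeq2 called Csf1r (adjusted p = 0.0305) and C1qb (adjusted p = 0.0404). The fat cell genes Lep and Plin1 had 0 counts in every library and Adipoq had at most 0.126 CPM. Cidec, the remaining gene of that list, had 14.05 and 35.35 CPM in wild type against 38.68 and 25.35 CPM in knockout. The part of macrophages and fat cells in the Saa3 level was not tested.

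Saa4 is the constitutive serum amyloid of the liver. It (ENSMUSG00000040017, chromosome 7, 46727998 to 46732603, minus strand) had 170.4 and 357 CPM in wild type replicates 1 and 2 and 323 and 267 CPM in knockout replicates 1 and 2. The groups overlapped, and its 2.10-fold range over libraries was the narrowest of the 10 genes. Between groups it had a log2 fold change of 0.16 (SE 0.43, 95% interval -0.86 to 1.18, edgeR adjusted p = 0.93). Per length, Saa4 made up 70.4% of the summed serum amyloid FPKM in wild type replicate 1, against 44.9% in wild type replicate 2, 42.7% in knockout replicate 1 and 48.9% in knockout replicate 2. Saa1 and Saa2 had 12.02% and 3.50% of it in wild type replicate 1, against 27.3% and 10.6% in wild type replicate 2. In knockout replicates 1 and 2, Saa1 had 27.7% and 23.7% and Saa2 had 12.9% and 18.7%. Saa3 had 14.1% and 17.2% in wild type replicates 1 and 2, then 16.6% and 8.77% in the knockout libraries. Saa1 and Saa2 thus had their smallest shares in wild type replicate 1, and Saa3 had its smallest in knockout replicate 2.

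**Figure D3:**
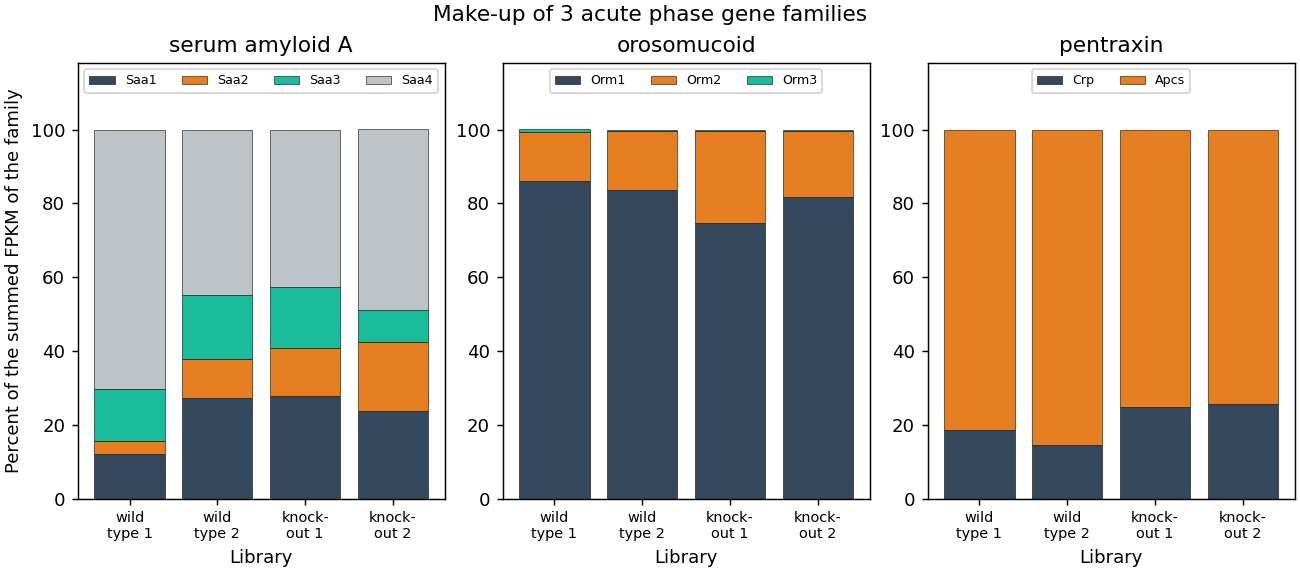
Percent of the summed FPKM of each of 3 families taken by each gene, with 1 bar per library; Orm3 is shown with its family but is not a member. Saa4 takes 70.4% of the serum amyloid FPKM in wild type replicate 1 and 42.7% to 48.9% in the other libraries.

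Orosomucoids, also called alpha-1-acid glycoproteins, are plasma carriers of small lipophilic molecules. Orm1 (ENSMUSG00000039196, chromosome 4, 63344560 to 63348163, plus strand) had 269.7 and 1259.9 CPM in wild type replicates 1 and 2 and 591 and 455 CPM in knockout replicates 1 and 2. Both knockout mice lay between the wild type mice. Means were 765 ± 700.2 CPM for wild type against 523 ± 95.7 CPM for knockout, giving a log2 fold change of -0.55 (SE 0.69, 95% interval -2.17 to 1.08, edgeR adjusted p = 0.835), which turned to 0.96 without wild type replicate 2. Orm2 (ENSMUSG00000061540, chromosome 4, 63362449 to 63365878, plus strand) had 42.1 and 239.7 CPM in wild type against 196 and 99.97 CPM in knockout replicates 1 and 2, with a log2 fold change of 0.07 (SE 0.75, edgeR adjusted p = 0.981). It ran from -0.73 to 1.82 as single libraries were left out. The groups overlapped for both genes. Of the 50-base windows in Orm1 transcripts, 20.4% also occur in Orm2, so the split of reads between them is uncertain. Orm3, which lies between them, took at most 0.626% of the family's FPKM. The sum of Orm1, Orm2 and Orm3 had a log2 fold change of -0.43 (SE 0.71, edgeR adjusted p = 0.875).

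Lcn2, or neutrophil gelatinase-associated lipocalin, withholds iron from bacteria by binding their siderophores, and it is made by inflamed hepatocytes and stored in neutrophil granules. It (ENSMUSG00000026822, chromosome 2, 32384633 to 32388252, minus strand) had 979 and 2680.3 CPM in wild type replicates 1 and 2 and 1119 and 1114 CPM in knockout replicates 1 and 2. The single high library was wild type replicate 2, and the other 3 lay close together. Means were 1829.9 ± 1203 CPM for wild type against 1116 ± 3.43 CPM for knockout, giving a log2 fold change of -0.71 (SE 0.57, 95% interval -2.07 to 0.65, edgeR adjusted p = 0.737). Leaving out wild type replicate 2 turned it to 0.19. Neutrophil markers were also highest in wild type replicate 2: the 11 genes of the list summed to 25.5 and 71.7 CPM in wild type against 14.2 and 15.1 CPM in knockout. All 6 tested members of that list had negative log2 fold changes. The calprotectin genes S100a8 and S100a9 had 5.23 and 5.39 CPM in wild type replicate 1, 19.4 and 24.2 in wild type replicate 2, and 1.07 to 2.28 CPM in the knockout libraries. Neither passed by edgeR with all libraries (adjusted p = 0.545 for both), but DESeq2 called S100a8 (adjusted p = 0.00207) and S100a9 (adjusted p = 0.014). The other 5 genes, among them the granule genes Camp, Ltf and Ngp, were too low to test. The part of neutrophils in the Lcn2 level was not tested.

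The pentraxins Crp and Apcs (serum amyloid P component) are ring-shaped proteins that bind microbes and cell debris and help activate complement. Apcs (ENSMUSG00000026542, chromosome 1, 172893961 to 172895041, minus strand) had 41.9 and 161 CPM in wild type replicates 1 and 2 and 72.8 and 64.9 CPM in knockout replicates 1 and 2. Crp (ENSMUSG00000037942, chromosome 1, 172698055 to 172833031, plus strand) had 35.2 and 102 CPM in wild type against 88.3 and 82.6 CPM in knockout replicates 1 and 2. For both genes the knockout mice resembled each other and lay between the wild type mice. The log2 fold changes were -0.56 for Apcs (SE 0.58, 95% interval -1.93 to 0.81, edgeR adjusted p = 0.798) and 0.32 for Crp (SE 0.49, 95% interval -0.84 to 1.48, edgeR adjusted p = 0.868). Both turned with single libraries, Apcs to 0.72 without wild type replicate 2 and Crp to -0.29 without wild type replicate 1. Per length, Apcs exceeded Crp in each library. Within the span of Crp lies the pseudogene Gm38051, with at most 2 counts in a library, and no annotated gene overlaps any other member.

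Itih4 encodes a liver-secreted heavy chain of the inter-alpha-trypsin inhibitor family that is a substrate of plasma kallikrein. It (ENSMUSG00000021922, chromosome 14, 30886476 to 30902353, plus strand) had 622 and 2334 CPM in wild type replicates 1 and 2 and 1373 and 923 CPM in knockout replicates 1 and 2. The knockout libraries again lay between the wild type libraries. Means were 1478 ± 1210.4 CPM for wild type against 1148 ± 318 CPM for knockout, giving a log2 fold change of -0.36 (SE 0.66, 95% interval -1.94 to 1.21, edgeR adjusted p = 0.888), and 0.89 without wild type replicate 2. Of the 6 related genes in a list, Itih2, Itih1, Itih3, Itih5, the bikunin precursor Ambp and the hyaluronan-linked Tnfaip6, 2 were positive and 4 negative, and 0 were called. Itih5 and Itih2 were lower in both knockout libraries without passing, at -0.83 (SE 0.43) and -0.42 (SE 0.35). Of all tested genes, 20.1% were lower without overlap. For Itih1 the value was 0.23 (SE 0.56) and for Tnfaip6 0.82 (SE 0.95).

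Ratios between relatives were also compared within each library, since a ratio does not depend on how a library is scaled. Of 5 ratios of FPKM, chosen after the levels had been seen, 4 did not overlap between the groups. The share of all gene pairs without overlap was not computed, and 42% of single tested genes did not overlap. Saa1 enters more than a single ratio, so the ratios are not independent. The ratio of Saa1 to Saa2 was 3.44 and 2.58 in wild type against 2.14 and 1.27 in knockout, in the order of replicate number. Orm1 to Orm2 stood at 6.41 and 5.26 in wild type and 3.01 and 4.56 in knockout. Apcs to Crp stood at 4.39 and 5.84 in wild type and 3.05 and 2.90 in knockout. Saa1 to Saa3 was 0.854 and 1.58 in wild type and 1.67 and 2.71 in knockout, whereas Saa3 to Saa4 overlapped, with 0.20 and 0.385 against 0.389 and 0.179. The smallest two-sided p of an exact permutation test with 2 libraries per group is 0.333, so none of these ratios could reach the threshold. Those of Saa1 to Saa2 and Orm1 to Orm2 are also open to how shared reads were assigned.

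Other positive acute phase genes varied across the mice in a similar order. Of 28 genes (such as haptoglobin, hemopexin, the fibrinogen chains, ceruloplasmin and metallothioneins), wild type replicate 2 was the highest library for 21 and wild type replicate 1 the lowest for 17. Between the groups, 5 were positive and 23 negative in log2 fold change (median -0.19, against 0.01 over all tested genes). Without overlap, 2 were higher and 5 lower, against 21.9% and 20.1% of all tested genes, and 0 were called. The protease inhibitor gene A2m had 1861 and 1420 counts in wild type against 584 and 222 counts in knockout, for a log2 fold change of -1.95 (SE 0.47, edgeR adjusted p = 0.545), and DESeq2 called it (adjusted p = 0.0162). Complement factor B (Cfb) had 898 and 1398 against 710.3 and 578 CPM. Lrg1, a leucine-rich glycoprotein, had 446 and 1913 against 525 and 507 CPM, and the endotoxin co-receptor gene Cd14 had 61.2 and 144 against 66.1 and 60.1 CPM, so in both the single high library was wild type replicate 2. Without wild type replicate 1, which leaves wild type replicate 2 alone in its group, the log2 fold change of Lrg1 was -1.93.

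Negative acute phase genes followed the same order of mice, not the opposite one. Among 14 such genes, wild type replicate 1 was the lowest library for 12, wild type replicate 2 was the highest for 12, and replicate 2 exceeded replicate 1 in 14 of 14. Between the groups, 5 were positive and 9 negative (median -0.06), with 0 called. Ttr, which carries thyroid hormone and retinol-binding protein, had 1626 and 3989 CPM in wild type against 3639.7 and 4884 CPM in knockout. Serpina7, the thyroxine-binding globulin, had 133 and 179.8 against 126 and 76.5 CPM. Serpina6, the corticosteroid-binding globulin, had 120.3 and 221 against 119 and 147 CPM, and the growth factor gene Igf1 89.5 and 149.6 against 176 and 176 CPM.

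**Figure D4:**
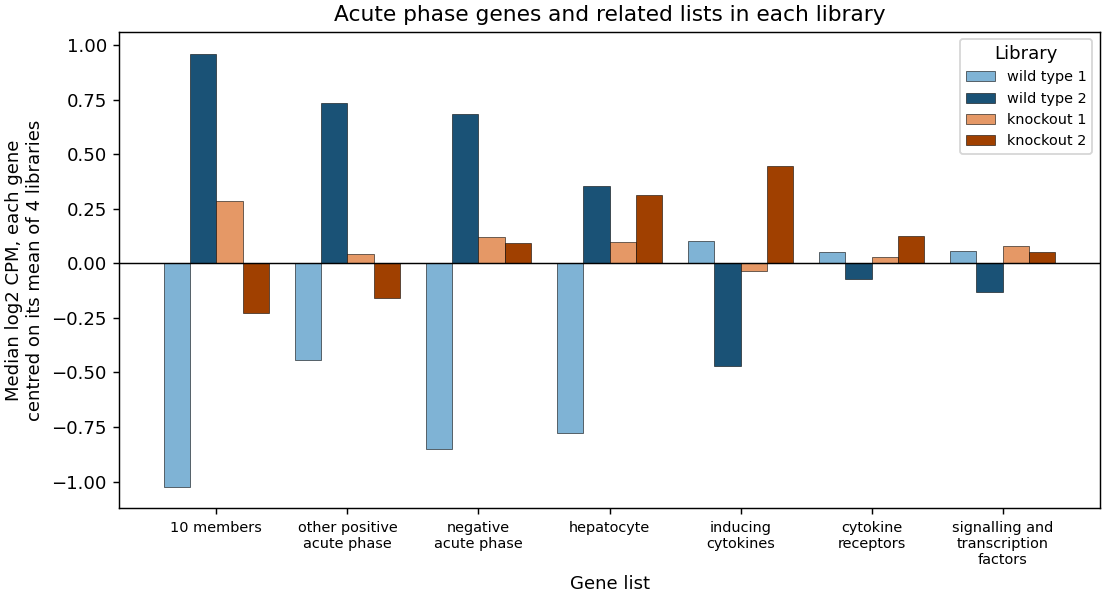
Median over each gene list of log2 CPM, each gene centred on its own mean of the 4 libraries, with 1 bar per library. The 10 acute phase genes, the other positive genes, the negative genes and the hepatocyte genes are lowest in wild type replicate 1 (-1.02, -0.44, -0.85 and -0.78) and highest in wild type replicate 2, while cytokine, receptor and signalling lists are not.

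Hepatocyte markers were also low in wild type replicate 1, which was the lowest library for 9 of 10 genes of the list, while wild type replicate 2 was the highest for 4. Of the list, 3 genes also belong to the negative acute phase list. Their mean log2 CPM was 8.79 in wild type replicate 1, 10.21 in wild type replicate 2, 9.86 in knockout replicate 1 and 10.24 in knockout replicate 2. Alb and Ttr were the most abundant of the list per length, and the genes with the smallest p were Arg1 (arginase 1), with 587 and 555 CPM in wild type against 935 and 786 CPM in knockout, and Tat (tyrosine aminotransferase), with 82.5 and 248 against 198 and 341 CPM. Neither passed. Each member was therefore also expressed relative to the mean of the 10 hepatocyte genes in its library.

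Relative to hepatocyte genes, wild type replicate 2 was still above wild type replicate 1 for 9 of 10 members, but the median difference shrank from 1.98 to 0.55 on the log2 scale. Wild type replicate 1 remained the lowest library only for Saa1 and Saa2, where the difference was 1.48 and 1.88. For Lcn2 and Crp it was 0.03 and 0.10, and for Saa4 it was -0.36. Between the groups, Saa2 stayed higher in both knockout libraries (log2 difference of means 1.35). Lcn2 and Apcs became lower in both knockout libraries, with differences of -1.09 and -0.80. The share of all tested genes without overlap was not computed on this scale, and it was 42% on TMM-scaled counts. On this scale 2 of 10 members had a higher mean in knockout. These values were not tested, and the direction of Saa3, Saa4, Orm2 and Crp, positive by edgeR on TMM-scaled counts, was negative on this scale. For Orm2 and Crp the differences were small, at -0.069 and -0.038. The reference mean includes Pck1, whose 34.66-fold range over libraries was the widest of the 10 hepatocyte genes. It was 19.88-fold higher in wild type replicate 2 than in wild type replicate 1. How far the values on this scale, including the median of 0.55, depend on Pck1 was not tested.

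**Figure D5:**
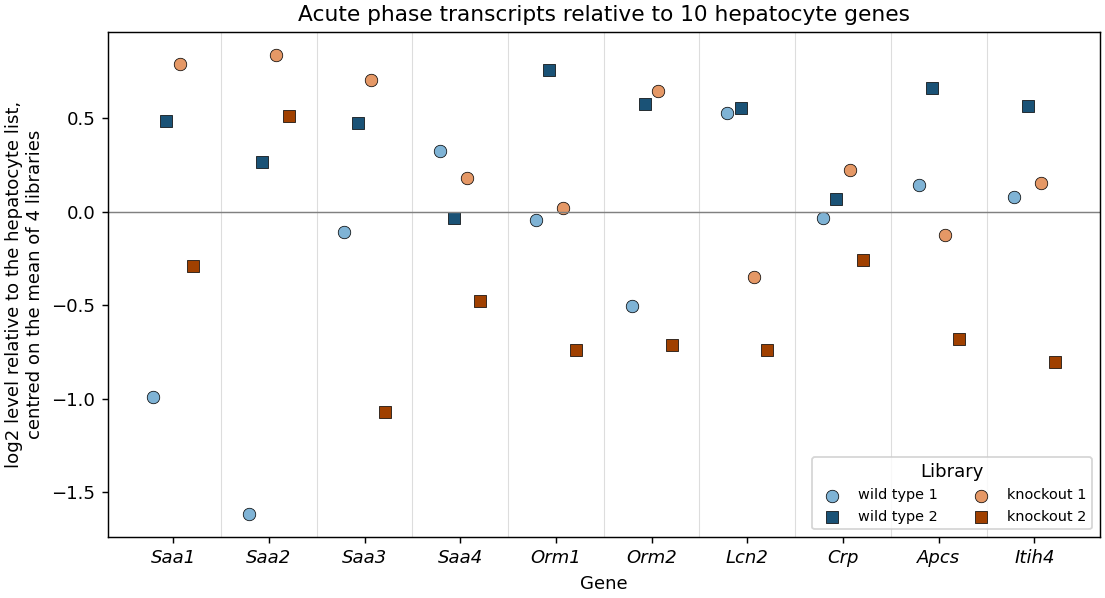
Log2 level of each acute phase gene relative to the mean log2 CPM of 10 hepatocyte genes in the same library, centred on its mean of the 4 libraries, with 1 point per library. Wild type replicate 1 is lowest for Saa1 and Saa2, and knockout replicate 2 is lowest for the other 8 genes.

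Several of the cytokines that induce acute phase genes had few counts. Il6 had 10 and 5 counts in the wild type libraries and 0 and 8 in the knockout libraries, Il11 had at most 8 counts, Ifng at most 2, and Il22 had 0 in every library, so these 4 were not tested. Among the 9 tested cytokine genes, 6 were positive and 3 negative in log2 fold change (median 0.08), and 0 were called. Without overlap, 1 was higher and 2 were lower, against 21.9% and 20.1% of all tested genes. Cxcl1, a neutrophil-attracting chemokine, had 52.3 and 36.6 CPM in wild type against 77.3 and 113 CPM in knockout, for a log2 fold change of 1.10 (SE 0.35, edgeR adjusted p = 0.547). Clcf1, a cytokine of the interleukin 6 family, had 14.8 and 9.81 against 14.4 and 28.0 CPM. Il1b had 5.01 and 3.64 against 2.65 and 2.14 CPM, and Il18 had 6.59 and 8.97 against 4.01 and 5.93 CPM. Tnf had 1.31 and 0.195 against 1.42 and 1.01 CPM. Ctf1 had 0.163 and 5.33 against 2.41 and 3.34 CPM, so its knockout libraries lay between the wild type libraries. Of the 9 tested cytokine genes, wild type replicate 1 was the lowest library for 1 and wild type replicate 2 the highest for 2.

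Receptors and transcription factors of the response had genes in both directions. Of 12 cytokine receptor genes, 7 were positive and 5 negative (median 0.15). Without overlap, 3 were higher and 2 lower, against 21.9% and 20.1% of all tested genes. The median of the list in single libraries lay between -0.07 and 0.13 of the genes' own means on the log2 scale. Il6ra, the interleukin 6 receptor, had 21.7 and 11.5 CPM in wild type against 35.3 and 24.9 CPM in knockout. For the interleukin 1 receptor chains the log2 fold change was 0.47 (Il1r1, SE 0.31) and 0.70 (Il1rap, SE 0.31), and for the tumour necrosis factor receptor gene Tnfrsf1b it was -0.38 (SE 0.32). Of 26 signalling and transcription factor genes, 14 were positive and 12 negative (median 0.07), and 6 were higher and 3 lower without overlap, against 21.9% and 20.1% of all tested genes. Relb, an NF-kB subunit, had 31.8 and 36.7 CPM in wild type against 15.1 and 19.0 CPM in knockout, and Nfkbiz, a nuclear cofactor of NF-kB, had 25.9 and 19.4 against 32.9 and 53.4 CPM. Socs3, a feedback inhibitor induced by STAT3, had 21.5 and 34.9 against 14.2 and 17.8 CPM, and the related Socs1 had 3.05 and 1.24 against 5.18 and 3.53 CPM. None of these genes passed, with edgeR adjusted p of 0.547 for Relb, 0.591 for Nfkbiz and 0.627 for Socs3.

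Genes for receptors of acute phase proteins had mostly negative fold changes. Of 13 tested receptor genes, 2 were positive and 11 negative (median -0.64), 7 were lower without overlap (against 20.1% of all tested genes), and 0 were called. The log2 fold change was -1.25 for Fcgr3 (SE 0.39) and -1.07 for Fcgr4 (SE 0.38), both Fc receptors, -0.86 for the lipoprotein receptor gene Scarb1 (SE 0.39) and -0.99 for the endotoxin receptor gene Tlr4 (SE 0.58). Several of these are leukocyte genes, and 8 of 10 genes of the macrophage list were also lower without overlap. The part of leukocytes in these values was not tested. Of 5 tested pentraxin and lipocalin relatives all were negative (median -0.53) and 0 were called. Ptgds, a lipocalin-type prostaglandin synthase, had 5.88 and 77.8 CPM in wild type against 10.7 and 4.48 CPM in knockout. Its single high library was wild type replicate 2. Orm3 had 1.96 and 7.99 against 3.76 and 1.96 CPM, Nptxr, a neuronal pentraxin receptor, had 0.871 and 1.75 against 0.740 and 1.07 CPM, and Apom, an apolipoprotein of the lipocalin fold, had 16.1 and 106 against 50.3 and 52.0 CPM. The soluble pentraxin gene Ptx3 had at most 5 counts and was not tested.

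Kupffer cells, the liver's resident macrophages, secrete cytokines that act on hepatocytes, and their markers were concentrated in wild type replicate 2. The 5 genes of the list summed to 5.66 and 147 CPM in wild type replicates 1 and 2 and 8.76 and 18.9 CPM in knockout replicates 1 and 2. Cd5l had 4.52 and 63.0 CPM in wild type against 4.57 and 6.43 CPM in knockout, and Marco had 0.272 and 11.8 against 1.42 and 0.820 CPM. Neither passed by edgeR with all libraries, and in both the single high library was wild type replicate 2. Clec4f was at 0 counts in wild type replicate 1 and at 59.6 CPM in wild type replicate 2. Wild type replicate 2 was thus the library with the highest levels of 9 of the 10 acute phase genes, of neutrophil markers and of Kupffer cell markers, and these cannot be told apart in 1 animal. Red cell genes summed to 956 and 2172 CPM in wild type against 212 and 150.3 CPM in knockout, with 5 of 5 lower in knockout without overlap. Groups also did not overlap for 4 of 6 endothelial genes (lower), 4 of 8 fibroblast and stellate genes (lower) and 2 of 7 bile duct genes (higher), against 20.1% of all tested genes lower and 21.9% higher. By edgeR 0 genes of these lists were called.

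The genes whose pattern over the 4 libraries came nearest to single members were ranked by the root mean square difference of centred log2 CPM among 10526 genes with a mean of at least 5 CPM. Nearest to Saa1 were Bex4 (0.159), the metallothionein gene Mt1 (0.267) and the cyclin gene Ccnd3 (0.279). Mt1 had 122 and 1311 CPM in wild type replicates 1 and 2 and 762 and 579 CPM in knockout replicates 1 and 2. Saa3 was nearest to the apolipoprotein gene Apoa4 (0.118), with 1884 and 7475 CPM in wild type against 5905 and 2815 CPM in knockout, then to Tcf24 (0.165) and Rnasek (0.169). For Lcn2 the nearest were Shisa5 (0.071), Endog (0.072), which encodes a mitochondrial nuclease, and Fcgrt (0.08), the receptor that recycles IgG and albumin. Orm1 was followed most closely by Gsta2 (0.108), a glutathione transferase, Tbkbp1 (0.122) and Chchd1 (0.147), and Itih4 by the phosphatidylcholine-synthesis gene Pemt (0.079), Gsta2 (0.08) and Slc37a1 (0.089). These distances are a description over 4 libraries, with no test.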

How the data were processed

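Bulk tumour mRNA from 4 mice was analysed, 2 labelled wild type and 2 labelled knockout; replicates are separate animals. The authors deposited 1 table with raw counts and FPKM for each library, which the values bear out: the counts are whole numbers, and FPKM followed the count at a fixed gene length for 100% of genes with at least 10 counts in every library (within 1%). HISAT2, SAMtools 1.3.1, StringTie, edgeR and mm10 are named without roles per the submitters' processing notes. Strand setting and the handling of reads shared by paralogs are not given in the sources used here. Gene symbols came from GENCODE M21, which matched 55141 of 55487 identifiers, with 99.4% equal spans.

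Counts were filtered with filterByExpr, scaled by TMM and tested with edgeR 4.0.16 (quasi-likelihood F test, two-sided, Benjamini-Hochberg over 16310 genes, threshold 0.05) in R 4.3.3. A floor of 3 counts corresponds to 0.176 to 0.188 CPM. Deposited FPKM was used only to compare levels between genes. For log2 levels a prior count of 2 was used. Alternatives were DESeq2 1.42.0 (also its size factors), limma-voom (limma 3.58.1), library totals, no filter, a mean of at least 5 CPM, mitochondrial genes left out, a replicate block, summed paralogs, hepatocyte-relative levels and leaving out each library. The test was checked on simulated data.

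The members and 17 gene lists were chosen with earlier results of these data known. Named were all members, Tfrc, the 4 genes with the smallest p of each described list, and for cell types the 2 with the smallest p and the 2 most abundant. Other list genes named were chosen after their values were seen. Nearest genes followed a rule excluding predicted genes.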

Additional observations from a re-analysis of the deposited data

How the results depend on the processing

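With 2 mice per group, single libraries set most values. The count of all tested genes called was 0, but 1 with library totals, 148 with DESeq2, 1 with limma-voom and 4 with the replicate block, and it ran from 0 to 409 as each library was left out. The count of members called was 0 in every fit with all libraries and ran from 0 to 1 as libraries were left out. Of the genes in the lists, 0 were called, against 10 with DESeq2 and 0 to 19 with a library left out. Replicate numbers are shared by the groups, but nothing in the labels pairs the mice; the deviations of same-numbered libraries correlated at 0.121 across genes, and the replicate block changed no call among members.

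Saa3 turned from 0.02 to -0.0058 with DESeq2's size factors, -0.0061 with DESeq2, -0.0243 with no filter and -0.0021 with mitochondrial genes left out. Orm2 turned to -0.43 when summed with Orm1 and Orm3. Apom turned to 0.33 with limma-voom and 0.30 with the replicate block, and Clec4f to 1.37 with limma-voom. With each library left out in turn, log2 fold changes that changed sign ran from -0.39 to 2.55 for Saa1, -0.88 to 1.35 for Saa3, -0.31 to 0.79 for Saa4, -1.31 to 0.96 for Orm1, -0.73 to 1.82 for Orm2, -1.30 to 0.19 for Lcn2, -0.29 to 1.28 for Crp, -1.26 to 0.72 for Apcs and -1.06 to 0.89 for Itih4. Outside the members they ran from -0.79 to 0.16 for Tfrc, -1.93 to 0.21 for Lrg1, -1.23 to 0.044 for Cd14, -0.77 to 0.14 for Serpina6, -0.45 to 1.41 for Itih1, -3.39 to 0.37 for Ptgds, -1.52 to 0.54 for Orm3, -0.99 to 0.0547 for Nptxr, -1.08 to 1.67 for Apom, -0.64 to 1.85 for Alb, -3.55 to 0.28 for Cd5l, -3.42 to 2.01 for Marco and -5.20 to 9.37 for Clec4f. Such fits take the spread of a lone mouse from the remaining libraries. The causes were not tested. The members had at least 264 counts in every library, and the effect of depth was not tested.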
